A study of Homo sapiens with 28 samples.

Results

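The replication-dependent histone genes were followed in HT-1080 cells, a human fibrosarcoma line, across 7 groups of 4 RNA sequencing libraries. Members are the genes whose symbols name an H1 linker histone numbered 1 to 6 or a clustered H2A, H2B, H3 or H4 gene (H2AC, H2BC, H3C and H4C symbols). The count table held 66 such genes among 60286 rows. Of these, 17 had a mean count of 10 or more over the 28 libraries and are called measured below, 34 had fewer counts, and 15 were listed at 0 in every library. The low-count filter of the test kept 23 of the 66 among 16325 genes.

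Wild-type cells were treated overnight with vehicle (DMSO) or with a single agent, which was RSL3 at 10 nM, LA (linoleic acid) at 80 µM, the conjugated acid CLA18:2 at 80 µM or CLA18:3 at 5 µM. The other groups, written RSL3+LA and RSL3+CLA18:2, combined RSL3 with an acid at those doses. RSL3 blocks GPX4, which detoxifies peroxidised phospholipids, and thereby triggers the iron-dependent death called ferroptosis. CLA18:2 differs from its isomer LA in having conjugated double bonds in place of ones set apart by a methylene group. CLA18:3, with 3 double bonds, was given at another dose than these acids. The series text calls the 4 replicates independent, so p values measure the spread between these libraries and nothing beyond it. The line is 1 tumour line, and all groups share it.

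Histone proteins package DNA into nucleosomes, and a cell must make a new set each time it copies its genome. The genes for this supply lie in clusters, mostly in the HIST1 cluster on chromosome 6, and are transcribed in S phase. Their main mRNAs carry no poly(A) tail. The mRNA ends instead in a conserved stem-loop, which SLBP binds, and the end is cut by a complex that holds the U7 snRNP proteins LSM10 and LSM11. NPAT, a target of cyclin E with CDK2, drives their transcription, and the mRNAs are broken down when DNA synthesis stops. Some of these genes also make longer transcripts that read past the stem-loop, can be spliced and carry a poly(A) tail. Other histone genes, such as H3-3A and H3-3B, are replication-independent and make ordinary polyadenylated mRNAs.

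The stem-loop is shown for 4 measured genes because it is the element that sets these mRNAs apart, and these 4 carry the 4 forms found among measured genes. Sequences are from the transcripts of GENCODE release 29 (GRCh38), 5′ to 3′ on the mRNA strand, with T for U. Capitals mark the stem-loop of 16 bases and small letters 5 bases on either side.
H2AC6: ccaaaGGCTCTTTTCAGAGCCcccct
H2BC4: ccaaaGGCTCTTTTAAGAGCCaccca
H4C8: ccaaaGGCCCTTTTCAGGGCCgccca
H2AC11: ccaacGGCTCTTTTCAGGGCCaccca
The form of H2AC6 was found in 13 members, 7 of them measured (H2AC6, H2BC21, H3C10, H2BC15, H2AC13, H2AC8 and H2BC6). H2BC5 shared the form of H2BC4, and H4C8 and H2AC11 were the only measured genes with theirs. The histone stem-loop consensus, searched on the mRNA strand, was present in a transcript of 11 of the 16 measured genes that matched the annotation and in 185 of 58676 genes of the release (0.315%). For H2BC12, H1-2, H2BC11, H2AC20 and H1-4 these letters were not in any annotated transcript. H2BC12, H1-2 and H2AC20 are annotated there by their coding length alone, so the region after the stop codon was not searched for them. H3C3 was not matched in that release.

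Promoters are shown for 3 measured genes: H2BC12, the gene with the most counts, its neighbour H2BC11, which was lower in 4 of 6 treatments, and H4C8, which was higher after both conjugated acids. Each is the RefSeq window of 250 bases before to 50 after a gene start in GRCh38.p14, 5′ to 3′ on the strand of the gene, which is the minus strand in all 3. The windows are chr6:27146809-27147108 for H2BC12, chr6:27132746-27133045 for H2BC11 and chr6:26285485-26285784 for H4C8. Capitals mark matches on either strand to the TATA box TATAAA, the promoter element CCAAT, the octamer ATTTGCAT, the AC box AAACACA and the E2F pattern TTTNGCGC, and no matches overlapped each other.
H2BC12: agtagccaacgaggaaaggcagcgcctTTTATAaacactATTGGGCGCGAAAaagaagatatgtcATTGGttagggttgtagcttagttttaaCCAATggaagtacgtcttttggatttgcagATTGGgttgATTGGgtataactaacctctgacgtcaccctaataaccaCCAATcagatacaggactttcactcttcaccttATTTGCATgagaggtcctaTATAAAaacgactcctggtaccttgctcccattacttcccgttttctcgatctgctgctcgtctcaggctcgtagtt
H2BC11: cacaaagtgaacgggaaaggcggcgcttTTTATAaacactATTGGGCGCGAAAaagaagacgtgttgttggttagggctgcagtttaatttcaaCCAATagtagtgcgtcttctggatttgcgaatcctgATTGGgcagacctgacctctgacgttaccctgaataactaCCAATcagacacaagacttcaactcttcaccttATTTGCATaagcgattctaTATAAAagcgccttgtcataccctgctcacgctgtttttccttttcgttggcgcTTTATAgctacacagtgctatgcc
H4C8: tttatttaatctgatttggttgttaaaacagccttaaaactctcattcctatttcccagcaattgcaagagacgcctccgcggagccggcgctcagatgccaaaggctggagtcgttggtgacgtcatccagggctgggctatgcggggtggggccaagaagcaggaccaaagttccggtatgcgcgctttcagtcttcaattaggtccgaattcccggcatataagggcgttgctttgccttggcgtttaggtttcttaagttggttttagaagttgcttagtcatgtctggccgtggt
The H2BC12 and H2BC11 windows both hold the octamer, at 46 and 47 bases before the start, a TATA box at 27 and 28 bases before it, and an E2F match at 206 and 205. The H4C8 window holds none of the 5 patterns, which says only that these letters are not in it. Over the family, the octamer stood in 14 of 17 H2B promoters and 11 of 15 H2A promoters, against 1.77% of all 35116 promoters, while no H4 or H1 promoter held it. The AC box stood in 6 of 6 H1 promoters (5.64% of all promoters), CCAAT in 52 of 61 member promoters (34.6%), TATAAA in 42 of 61 (11.5%) and the E2F pattern in 12 of 61 (1.79%).

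A few genes carried nearly all histone counts. H2BC12 alone held 42.6% of the summed CPM of the family (CPM, the count scaled by library total and TMM factor), H2BC12 with H1-2 held 63.9%, and the 9 highest held 94.3%. By class, H2B genes gave 59% of the family's CPM, H1 genes 21.5%, H2A genes 14.9%, H4 genes 2.67% and H3 genes 1.89%. The plot of mean counts by gene shows the fall from H2BC12 at 2063 counts per library to H2BC6 at 10.46, the last measured gene, and H4C3 at 9.429, the first one under the minimum.

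**Figure D1:**
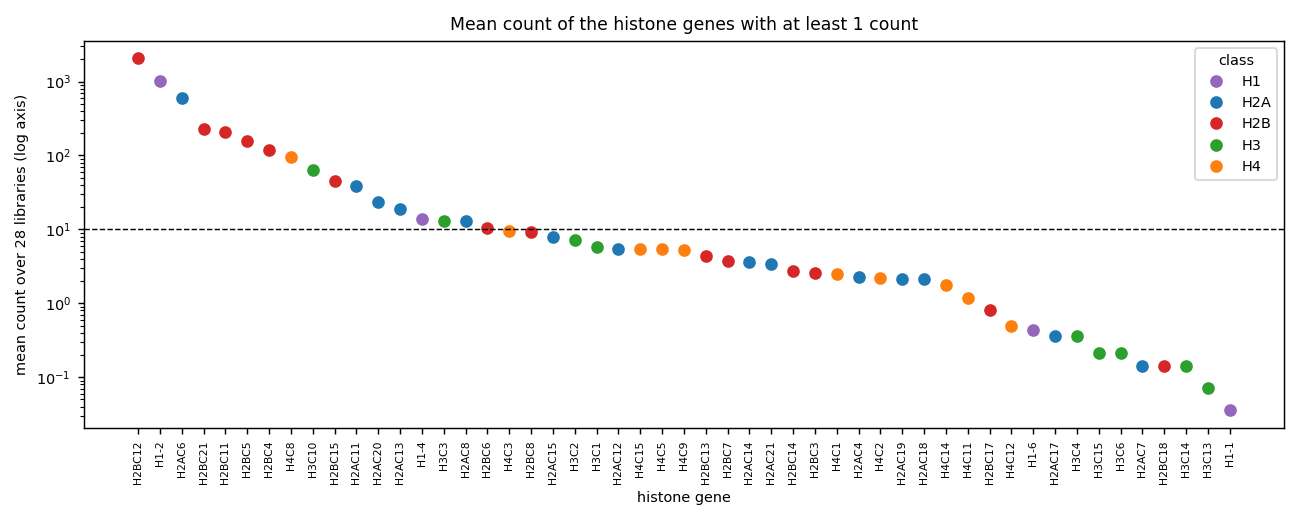
Mean count over the 28 libraries (y axis, log scale) of each histone gene with at least 1 count (x axis), coloured by class, with a dashed line at the minimum of 10. The 17 genes above the line include 7 H2B, 5 H2A, 2 H1, 2 H3 and 1 H4 genes, and H2BC12 lies highest at 2063.

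Per length, H2BC12 also stood highest, at 270.6 CPM per kb of annotated exon, followed by H1-2 at 80, H2AC6 at 17.97, H2BC11 at 10.99 and H2BC5 at 9.014 CPM per kb. The annotation behind the deposited counts is not given in the sources used here, and the coding-length models of H2BC12 and H1-2 in release 29 are shorter than a full mRNA, so these levels per kb carry that uncertainty. H2BC12 was annotated as a single exon at chr6:27146418-27146798 and H1-2 as a single exon at chr6:26055787-26056428, both on the minus strand. H2AC6 spans chr6:26124145-26139116 on the plus strand with spliced transcripts, and a transcript of it runs 1128 bases past the stem-loop. H2BC21 lies on chromosome 1 in 1 exon of 2194 bases, of which 1729 follow the stem-loop.

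Annotated transcripts that are spliced, or that run more than 100 bases past the stem-loop, were found for 10 of 16 measured genes (62.5%) and for 13 of 46 genes that were not measured (28.3%). The annotation holds only a coding length for most of the latter, so absent long forms there are partly absent models. H2BC5 overlaps LARP1P1 and AL353759.1, H2BC6 overlaps AL353759.1, and H2BC15 overlaps HIST1H2AL, HIST1H2AK and HIST1H2BPS2. The strand setting and the treatment of reads shared between near-identical copies are not given in the sources used here, so the counts of H2BC5, H2BC6 and H2BC15 are uncertain, and those of all members may include reads of close copies.

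The 15 genes listed at 0 in every library were H1-3, H1-5, H2AC1, H2AC16, H2BC1, H2BC9, H2BC10, H3C7, H3C8, H3C11, H3C12, H4C4, H4C6, H4C7 and H4C13. A count of 0 allows up to 3 counts, which is 0.122 to 0.184 CPM by library. How the RNA was selected for the libraries is not given in the sources used here. Among 27 RNAs known to lack a poly(A) tail, 4 passed the low-count filter, RN7SK and RPPH1 were also listed at 0 in all libraries, and RN7SL1 stood at 47.16 ± 6.944 CPM (SD, n = 4) in DMSO. Their part in the histone levels was not tested.

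Many histone genes lie head to head and share a promoter region. In 3 such pairs both genes were measured, namely H2BC4 with H2AC6 (219 bases between starts), H2BC11 with H2AC11 (292) and H2BC21 with H2AC20 (323). Partners could differ widely in level, as H2BC12 averaged 103.1 CPM and its partner H2AC12, 331 bases away, 0.2734 CPM. H2AC6 averaged 29.97 CPM beside 5.871 CPM for H2BC4, and H2BC11 averaged 10.44 CPM beside 1.927 CPM for H2AC11. These are means over the 28 libraries and are not corrected for length.

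Library totals ran from 16226270 to 24286824 counts. Genes with a count moved with treatment, from 23082 to 23636 per library in DMSO, 21552 to 22801 in CLA18:2, 19212 to 21462 in RSL3+CLA18:2 and 18812 to 20653 in CLA18:3. The ranges of these 3 treatments did not overlap that of DMSO, nor did that of RSL3+LA, from 21110 to 22727. Those of RSL3 and LA overlapped it. Mitochondrial counts are here those of the protein-coding genes of the mitochondrial genome, without its rRNAs and tRNAs. They were 0.2632% to 1.926% of a library over all groups and 1.256% to 1.486% in DMSO. In RSL3+CLA18:2, replicates 1, 2 and 4 had 0.2632%, 0.3127% and 0.3085%, below every DMSO library, while replicate 3 had 1.678%, above them. Low libraries were also found in other groups, as RSL3 replicate 4 at 0.5477%, LA replicate 4 at 0.4514% and CLA18:3 replicate 1 at 0.3562%. CLA18:2 was itself split, with replicates 1 and 3 at 0.312% and 0.4252% and replicates 2 and 4 at 1.483% and 1.005%. All 20 mesenchymal markers passed the filter, vimentin (VIM) standing at 2285 CPM in DMSO. Of 16 epithelial and 16 blood cell markers 5 and 4 passed, EPCAM and PTPRC were at 0 in the DMSO libraries, and the blood list was led by LCP1 at 481.3 CPM, an actin-bundling protein that many tumour lines make.

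The measured histone genes together took 0.02499% ± 2.1e-04 of all counts in DMSO (SD, n = 4), between 0.02475% and 0.0252%. Their share was 0.0241% ± 0.001012 after RSL3. It was 0.02248% ± 6.3e-04 after LA and 0.02138% ± 0.001421 with RSL3 added, and 0.02347% ± 4.2e-04 after CLA18:2 and 0.02243% ± 0.001327 with RSL3 added. In CLA18:3 it was 0.02673% ± 0.001014, between 0.02545% and 0.02756%. Every library of LA, CLA18:2, RSL3+LA and RSL3+CLA18:2 lay below every DMSO library, every CLA18:3 library lay above them, and RSL3 overlapped DMSO. The sum is led by H2BC12 and was not tested as a score. In RNA from whole cultures, fewer cells in S phase and less histone RNA per cell cannot be told apart.

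Each treatment was set against DMSO to ask which genes it moved, with log2 fold changes ± SE and Benjamini-Hochberg adjusted p values from edgeR's quasi-likelihood test over all 16325 genes at a threshold of 0.05. The 6 comparisons share the same 4 DMSO libraries. Of the 23 tested histone genes, 9 passed in at least 1 of the 6 comparisons, where 58.2% of all genes did, in 19 gene and comparison pairs. No histone gene passed with a change of 2-fold or more, where 8.93% of all genes did in at least 1 comparison. H2BC12, H1-2, H2BC5 and H4C8 rose in at least 1 treatment, H2BC12, H2AC6, H2BC11, H2BC21, H2BC4 and H3C10 fell in at least 1, and H2BC12 did both.

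**Figure D2:**
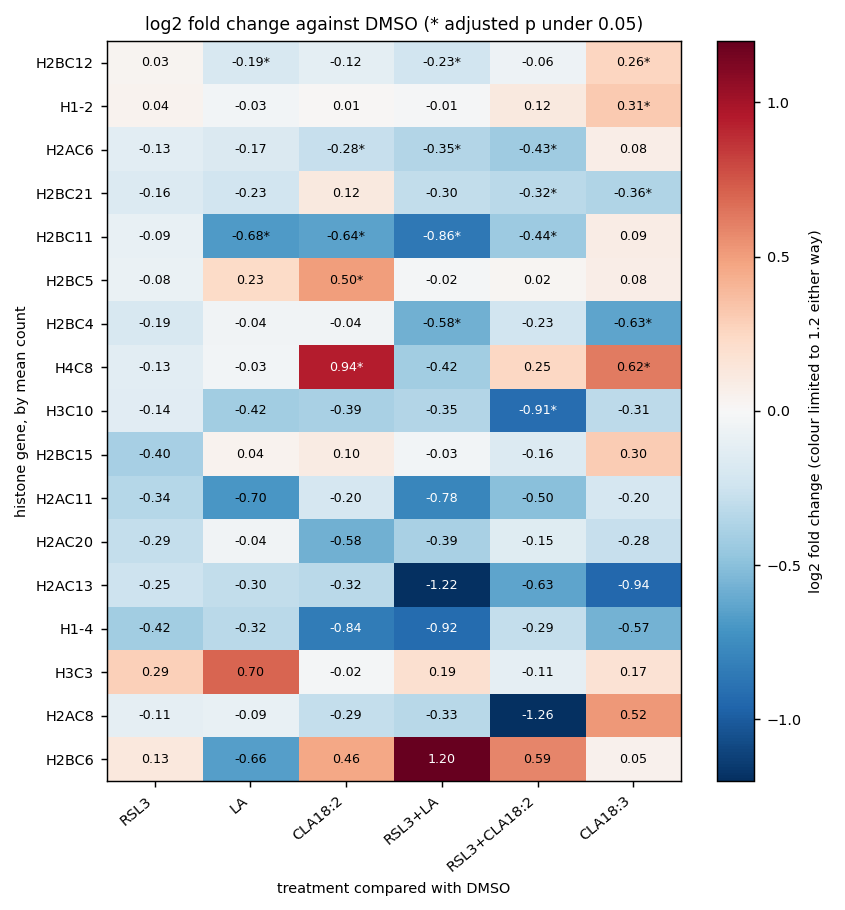
Log2 fold change against DMSO (colour and number) of the 17 measured histone genes (rows, by mean count) in the 6 treatments (columns), with an asterisk at an adjusted p under 0.05. H2BC11 is marked as lower in LA, CLA18:2, RSL3+LA and RSL3+CLA18:2, H4C8 as higher in CLA18:2 and CLA18:3, and RSL3 alone has no mark.

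RSL3 alone gave 0 of 23 histone genes past the threshold, where 33 of all genes (0.202%) passed. At an unadjusted p under 0.05 the count was also 0, and limma voom and DESeq2 called 0 as well. The median log2 fold change was -0.14 for the histone genes and 0.01 for all genes. LA lowered 2 of 23, H2BC11 and H2BC12, and raised 0, where 8.32% of all genes passed (3.41% lower and 4.91% higher), with medians of -0.15 and 0.00. RSL3+LA lowered 4 of 23 (H2BC11, H2BC4, H2AC6 and H2BC12) and raised 0, where 10.2% of all genes passed (4.81% lower and 5.43% higher), with medians of -0.39 and 0.01.

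CLA18:2 raised 2 of 23 (H4C8 and H2BC5) and lowered 2 (H2BC11 and H2AC6), where 20.1% of all genes rose and 18.6% fell. The 4 histone genes are 17.4% of those tested, below the 38.8% of all genes that passed in either direction. RSL3+CLA18:2 lowered 4 of 23 (H3C10, H2BC11, H2AC6 and H2BC21) and raised 0, where 35.2% of all genes passed (16.6% lower and 18.6% higher). CLA18:3 raised 3 of 23 (H4C8, H1-2 and H2BC12) and lowered 2 (H2BC4 and H2BC21), where 35.9% of all genes passed (19.1% higher and 16.7% lower). Of all genes called there, 53.4% were higher, but 38.4% with library totals only. The median histone value was -0.29 for CLA18:2, -0.23 for RSL3+CLA18:2 and 0.05 for CLA18:3, beside -0.02, -0.02 and 0.00 for all genes. With only genes of a mean count of 10 or more in the fit, the histone medians were -0.12, -0.22 and 0.08. For CLA18:3 the sign was not stable, at -0.17 with limma voom and -0.02 with library totals only. In these 3 treatments the share of histone genes that passed was thus under that of all genes. The 9 histone genes that passed against DMSO in any treatment had mean counts of 63.61 or more, and the other tested ones 44.79 or less. What low counts contributed to the share was not tested. Genes with a count averaged 22120 in CLA18:2, 20230 in RSL3+CLA18:2 and 19560 in CLA18:3, against 23340 in DMSO. The means of RSL3 (22730), LA (22730) and RSL3+LA (22190) were also below DMSO. The part of this measure in these results was not tested.

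Among the linker histones, which bind DNA where it enters and leaves the nucleosome, H1-2 was the only gene at a substantial level. In DMSO it stood at 49.79, 47.52, 48.31 and 50.56 CPM and in CLA18:3 at 58.77, 59.71, 65.02 and 59.07 CPM. All CLA18:3 libraries lay above all DMSO libraries. H1-2 rose after CLA18:3 by 0.31 ± 0.07 (adjusted p 3.6e-04). In the other treatments its mean stayed between 47.93 CPM in LA and 53.23 CPM in RSL3+CLA18:2, and no difference from DMSO passed over all libraries. Without RSL3+CLA18:2 replicate 4, the value for RSL3+CLA18:2 of 0.12 ± 0.07 became 0.18 and passed (adjusted p 0.038). The library ranges of those groups all overlapped that of DMSO. H1-4, the other measured linker gene, averaged 0.7049 CPM, and its values against DMSO, from -0.92 to -0.29, did not pass.

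H2AC6 was the main H2A gene. Its DMSO libraries stood at 33.09, 34.12, 33.36 and 34.56 CPM. It read 28.92, 27.87, 29.15 and 25.73 CPM in CLA18:2, and 23.88, 28.11, 28.39 and 25.71 CPM in RSL3+LA. The RSL3+CLA18:2 libraries were at 22.48, 23.58, 29.28 and 24.96 CPM. Every library of these 3 groups lay below every DMSO library. H2AC6 fell by 0.28 ± 0.08 on the log2 scale after CLA18:2 (adjusted p 0.00559), by 0.35 ± 0.08 after RSL3+LA (0.00261) and by 0.43 ± 0.08 after RSL3+CLA18:2 (5.8e-05). LA alone, with libraries from 27.72 to 31.24 CPM that also lay below DMSO, gave -0.17 ± 0.08 (adjusted p 0.233), and CLA18:3, from 32.29 to 39.51 CPM, gave 0.08 ± 0.08 (adjusted p 0.503). With only the groups compared in the fit, the value for LA passed, at an adjusted p of 0.0485.

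The other measured H2A genes, H2AC11, H2AC20, H2AC13 and H2AC8, averaged between 0.648 and 1.927 CPM, and none passed in any comparison with DMSO. H2AC8 read -1.26 ± 0.53 after RSL3+CLA18:2 (adjusted p 0.0614) and H2AC13 read -1.22 ± 0.53 after RSL3+LA (adjusted p 0.164). H2AC11, the head-to-head partner of H2BC11, read -0.70 ± 0.36 after LA and -0.78 ± 0.36 after RSL3+LA (adjusted p 0.308 and 0.198), where H2BC11 read -0.68 and -0.86. After CLA18:2 it read -0.20 ± 0.35 (adjusted p 0.705), where H2BC11 read -0.64.

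The H2B genes held the largest sum and the most calls, and were also the class with the most tested genes (8 of 23). H2BC12 stood at 107.6, 107.2, 106.4 and 101.6 CPM in DMSO and at 119.6, 133.6, 128.1 and 125.1 CPM in CLA18:3, so that all CLA18:3 libraries were higher. In LA it read 91.21, 90.46, 93.73 and 95.14 CPM and in RSL3+LA 77.76, 93.4, 97.64 and 92.11 CPM, and all libraries of both groups were lower than those of DMSO. H2BC12 rose by 0.26 ± 0.06 after CLA18:3 (adjusted p 6.6e-04). It fell by 0.19 ± 0.06 after LA (adjusted p 0.0395) and by 0.23 ± 0.06 after RSL3+LA (adjusted p 0.00902). After CLA18:2 the value was -0.12 ± 0.06 (adjusted p 0.118), which passed only with upper-quartile factors (0.0346). The LA call did not hold without any 1 library other than DMSO replicate 4, with values from -0.20 to -0.18 and adjusted p of 0.0576 to 0.103. The RSL3+LA call did not hold without RSL3+LA replicate 1, at -0.16 (adjusted p 0.0724).

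H2BC11 gave the most frequent decrease. Its DMSO libraries stood at 11.61, 13.54, 13.35 and 14.1 CPM. LA libraries read 8.45, 8.082, 8.257 and 8.061 CPM, and CLA18:2 libraries 8.447, 9.541, 8.269 and 7.39 CPM. All 8 lay below all DMSO libraries. In RSL3+LA the values were 5.027, 7.052, 6.956 and 9.869 CPM, and in RSL3+CLA18:2 they were 7.706, 10.5, 11.67 and 8.726 CPM. The RSL3+LA libraries were also all below DMSO, while RSL3+CLA18:2 replicate 3 lay just above the lowest DMSO library. H2BC11 fell by 0.68 ± 0.14 after LA (adjusted p 0.00129), by 0.64 ± 0.14 after CLA18:2 (4.3e-04), by 0.86 ± 0.15 after RSL3+LA (5.3e-05) and by 0.44 ± 0.14 after RSL3+CLA18:2 (0.0135). The last did not pass without RSL3+CLA18:2 replicate 1, at -0.35 (adjusted p 0.0646). After RSL3 it read -0.09 ± 0.14 and after CLA18:3 0.09 ± 0.14 (adjusted p 0.996 and 0.65), with CLA18:3 libraries at 10.8, 15.45, 14.79 and 15.13 CPM.

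H2BC21, in the chromosome 1 cluster, stood at 11.71, 11.65, 14 and 14.16 CPM in DMSO. It read 10.64, 9.154, 10.29 and 11.11 CPM in RSL3+CLA18:2 and 9.38, 9.443, 11.96 and 9.405 CPM in CLA18:3. The RSL3+CLA18:2 libraries were all lower than DMSO, and CLA18:3 replicate 3 overlapped it. H2BC21 fell by 0.36 ± 0.11 after CLA18:3 (adjusted p 0.0119) and by 0.32 ± 0.11 after RSL3+CLA18:2 (adjusted p 0.0252). The latter was lost with no low-count filter (0.0587) and without DMSO replicate 3, DMSO replicate 4 or RSL3+CLA18:2 replicate 2, with values of -0.28, -0.27 and -0.27 (0.0873, 0.0863 and 0.0868). RSL3+LA gave -0.30 ± 0.11 (adjusted p 0.0939), which passed with only the groups compared in the fit (0.0486).

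H2BC4, the partner of H2AC6, stood at 7.773, 6.472, 7.128 and 6.076 CPM in DMSO. It was at 4.922, 4.636, 4.552 and 4.201 CPM in RSL3+LA and at 4.885, 4.842, 4.077 and 3.907 CPM in CLA18:3, with no library of either group reaching the DMSO range. H2BC4 fell by 0.58 ± 0.15 after RSL3+LA (adjusted p 0.00977) and by 0.63 ± 0.15 after CLA18:3 (adjusted p 0.0014). In LA alone its 4 libraries spread from 5.143 to 8.526 CPM around DMSO. H2AC6, which starts 219 bases away, did not pass after CLA18:3 and read 0.08 ± 0.08.

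H2BC5 stood at 7.143, 7.258, 7.557 and 7.024 CPM in DMSO and at 10.83, 10.53, 9.432 and 10.07 CPM in CLA18:2. All CLA18:2 libraries were higher than all DMSO libraries. H2BC5 rose by 0.50 ± 0.15 after CLA18:2 (adjusted p 0.00943). LA libraries, from 8.039 to 9.423 CPM, also lay above DMSO, with 0.23 ± 0.15 (adjusted p 0.499). In RSL3+CLA18:2 the libraries spread widely, at 7.763, 6.3, 10.52 and 4.723 CPM, and the high one was replicate 3, the library that also differed from the others in mitochondrial counts, whose part in this was not tested. The measured H2B genes H2BC15 and H2BC6 averaged 2.23 and 0.5194 CPM and did not pass in any comparison with DMSO.

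H4C8 was the only measured H4 gene and gave the largest increase among the calls against DMSO. Its DMSO libraries stood at 4.884, 3.837, 3.736 and 3.679 CPM. In CLA18:2 it read 6.251, 8.313, 8.024 and 8.376 CPM, all above DMSO, and in CLA18:3 6.351, 4.358, 8.264 and 5.861 CPM, of which replicate 2 fell within the DMSO range. H4C8 rose by 0.94 ± 0.21 after CLA18:2 (adjusted p 3.3e-04) and by 0.62 ± 0.21 after CLA18:3 (adjusted p 0.0175). The CLA18:3 call did not hold without CLA18:3 replicate 3, at 0.45 (adjusted p 0.0991). LA gave -0.03 ± 0.21 and RSL3+LA -0.42 ± 0.22 (adjusted p 0.974 and 0.26). RSL3+CLA18:2 libraries read 4.14, 4.684, 7.229 and 3.059 CPM, with 0.25 ± 0.21 (adjusted p 0.391). Without replicate 3 of that group, whose 1.678% mitochondrial counts stood nearest to DMSO, the value was -0.02.

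H3C10 was the main H3 gene. It stood at 4.884, 3.282, 3.521 and 4.515 CPM in DMSO and at 2.415, 2.1, 2.562 and 1.529 CPM in RSL3+CLA18:2, where every library was below every DMSO library. H3C10 fell by 0.91 ± 0.20 on the log2 scale (adjusted p 5.9e-04), the largest decrease among the calls against DMSO. After the single acids it read -0.42 ± 0.20 in LA, -0.39 ± 0.20 in CLA18:2 and -0.31 ± 0.20 in CLA18:3, none of which passed (adjusted p 0.25, 0.13 and 0.24). H3C3, the other measured H3 gene, averaged 0.6566 CPM and read from -0.11 to 0.70 without passing.

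**Figure D3:**
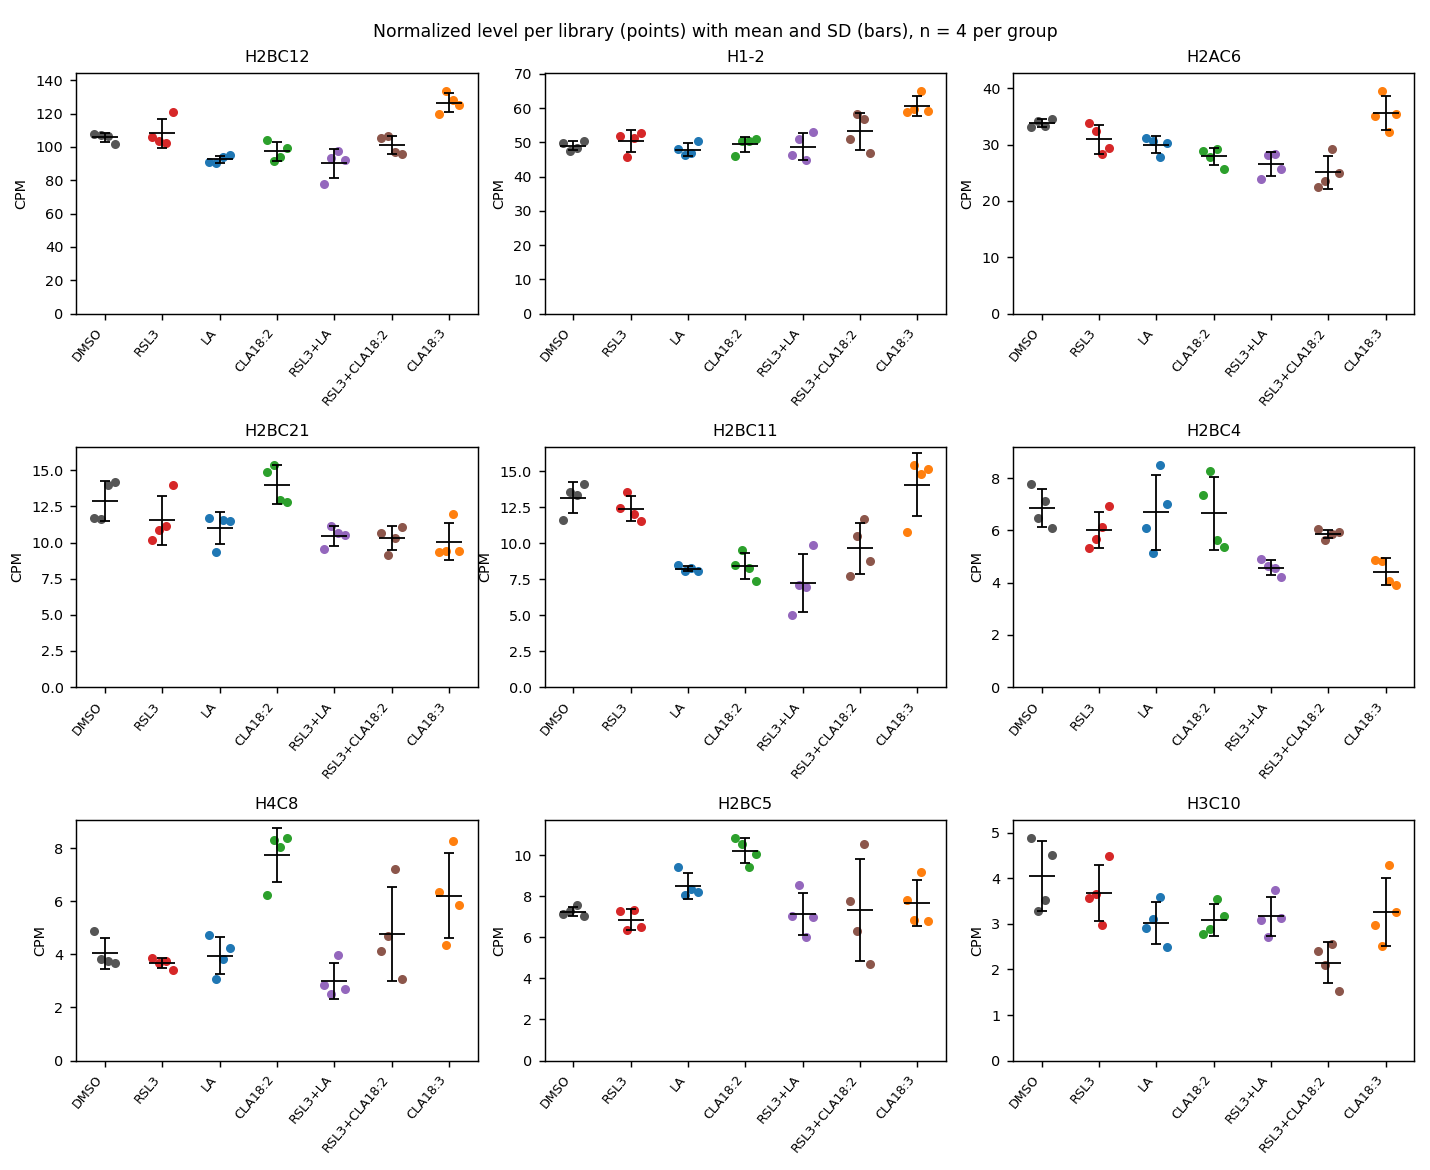
CPM per library (points, y axis from 0) of the 9 histone genes that passed against DMSO, by group (x axis), with the mean and SD of 4 libraries (black). H2BC11 lies lower in LA, CLA18:2 and RSL3+LA than in DMSO, H4C8 reaches 8.376 in CLA18:2 against at most 4.884 in DMSO, and the RSL3+CLA18:2 libraries of H2BC5 spread from 4.723 to 10.52.

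Genes with fewer counts gave wide errors. The 8 measured genes that passed nowhere against DMSO averaged 2.23 CPM or less, and 6 further genes entered the test with a mean count under 10 (H4C3, H2BC8, H2AC15, H3C2, H3C1 and H4C15). The widest value was -2.26 ± 1.05 for H4C15 after LA (adjusted p 0.238), and H2AC15 read -2.01 ± 0.84 after CLA18:3 (adjusted p 0.0605). A single count was worth 0.0407 to 0.0613 CPM.

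Adding an agent to another gave few changes in histone genes. Against RSL3 alone, RSL3+LA lowered 2 of 23 and raised 0 (9.58% of all genes passed, 5.8% lower and 3.78% higher), H2BC11 by -0.78 ± 0.15 (adjusted p 3.2e-04) and H2BC12 by -0.26 ± 0.06 (adjusted p 0.00294). Of all genes called there 39.5% were higher, but 59.4% with library totals only. RSL3+CLA18:2 lowered 2 of 23 and raised 0 (30.4% of all genes passed, 14.5% lower and 15.9% higher), H2AC6 by -0.30 ± 0.08 (adjusted p 0.0039) and H3C10 by -0.78 ± 0.21 (adjusted p 0.00372). That count was 4 without RSL3+CLA18:2 replicate 3. RSL3 added to LA gave 0 of 23, where 0.049% of all genes passed (0.0368% higher and 0.0123% lower, so that 75% of the calls were higher, against 88.9% with upper-quartile factors). At an unadjusted p under 0.05 there were 3, limma voom and DESeq2 called 0, and the lowest of the main genes was H2BC4 at -0.54 ± 0.15 (adjusted p 0.264).

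RSL3 added to CLA18:2 lowered 3 of 23 and raised 0 against CLA18:2 alone, where 11.9% of all genes passed (5.24% lower and 6.65% higher). Of all genes called, 55.9% were higher, but 42.4% with library totals only. H4C8 read -0.69 ± 0.20 (adjusted p 0.0209), H2BC5 -0.48 ± 0.15 (0.0358) and H2BC21 -0.44 ± 0.11 (0.00712). H4C8 and H2BC5, the genes that CLA18:2 alone had raised, were thus lower in the mixture than in CLA18:2. With only these groups in the fit, their adjusted p was 0.0667 and 0.15. H4C8 did not pass without RSL3+CLA18:2 replicate 1 (-0.63) or 4 (-0.52) or CLA18:2 replicate 2 (-0.66) or 4 (-0.65). H2BC5 did not pass without RSL3+CLA18:2 replicate 2 (-0.42) or 4 (-0.31) or CLA18:2 replicate 1 (-0.46), 2 (-0.48) or 4 (-0.49). H2BC21 passed without each library in turn.

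LA and CLA18:2, given at the same 80 µM, were compared directly without and with RSL3. CLA18:2 gave higher levels than LA in 2 of 23 histone genes and lower ones in 0, where 30.2% of all genes passed (15.6% higher and 14.6% lower). H4C8 was higher by 0.97 ± 0.21 (adjusted p 3.2e-04), and H2BC21 by 0.35 ± 0.11 (adjusted p 0.0157), the latter not passing without LA replicate 2 (0.28, adjusted p 0.0846). H2BC11, lowered by both acids, differed between them by 0.04 with a 95% interval of -0.26 to 0.34. H2BC12 differed by 0.07 (-0.05 to 0.19), H1-2 by 0.04 (-0.09 to 0.18) and H2AC6 by -0.10 (-0.27 to 0.06), none of which passed.

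With RSL3 present, CLA18:2 gave higher levels than LA in 3 of 23 and lower ones in 1, where 26.1% of all genes passed (14.1% higher and 12% lower). Of all genes called, 54% were higher, but 39.1% with library totals only and 41.4% with upper-quartile factors. H4C8 read 0.67 ± 0.21, H2BC11 0.42 ± 0.15, H2BC12 0.16 ± 0.06 and H3C10 -0.56 ± 0.21 (adjusted p 0.0184, 0.0333, 0.0395 and 0.0432). All 4 calls were lost with only these groups in the fit, at adjusted p of 0.0798, 0.136, 0.109 and 0.137. H4C8 did not pass without RSL3+LA replicate 2 (0.59) or 4 (0.62) or RSL3+CLA18:2 replicate 3 (0.40). H2BC11 did not pass without RSL3+LA replicate 1 (0.29), 2 (0.41) or 3 (0.40) or RSL3+CLA18:2 replicate 2 (0.38) or 3 (0.32). For H2BC12 this held without RSL3+LA replicate 1 (0.11) or 4 (0.17) or RSL3+CLA18:2 replicate 1 (0.14) or 2 (0.14), and for H3C10 without RSL3+LA replicate 1 (-0.56), 3 (-0.47) or 4 (-0.56) or RSL3+CLA18:2 replicate 2 (-0.55) or 4 (-0.42).

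Interactions asked whether the response to RSL3 differed with an acid present. None of the 23 histone genes passed for RSL3 with LA (0.0245% of all genes passed, all lower), for RSL3 with CLA18:2 (3.55%, 1.75% higher and 1.8% lower) or between the isomers (3.63%, 2.41% higher and 1.22% lower), and limma voom and DESeq2 called 0 in each. At an unadjusted p under 0.05 the counts were 1, 0 and 5. Between the isomers, 66.4% of all genes called were higher, and 49.4% with library totals only. H4C8 read -0.56 ± 0.29 for RSL3 with CLA18:2, with a 95% interval of -1.16 to 0.04.

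The genes that make and process histone mRNAs were followed through a list of 24, of which 23 were tested. In CLA18:2, 13 of 23 fell and 4 rose, where 18.6% of all genes fell and 20.1% rose, with a median log2 fold change of -0.20 beside -0.02 for all genes. SLBP, which binds the stem-loop, stood at 111.6, 108.7, 107.3 and 100.9 CPM in DMSO and at 65.38, 58.05, 63.03 and 64.49 CPM in CLA18:2. The groups did not overlap, and SLBP fell by 0.77 ± 0.06 on the log2 scale (adjusted p 2.1e-12). It also fell after RSL3+CLA18:2 by 0.30 ± 0.06 and after CLA18:3 by 0.26 ± 0.06 (adjusted p 2.2e-04 and 0.00108). After LA and RSL3+LA it read -0.19 ± 0.06 (adjusted p 0.0423 and 0.0354), and neither call held without DMSO replicate 1, 2 or 3 or replicate 1 or 2 of the treated group, nor that for LA without LA replicate 4, with values from -0.19 to -0.17 (adjusted p up to 0.158).

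LSM11, of the U7 snRNP, fell after CLA18:2 by 0.56 ± 0.11 (adjusted p 8.2e-05), CDK2 by 0.92 ± 0.06 (1.5e-15) and E2F1, a transcription factor of S-phase genes, by 0.69 ± 0.06 (3.7e-11). CASP8AP2, a component of histone locus bodies, fell by 0.41 ± 0.13 (adjusted p 0.0102), a call not held without CLA18:2 replicate 4 (-0.34, 0.0537). After CLA18:3 CASP8AP2 fell by 0.65 ± 0.13 (adjusted p 1.4e-04) and NPAT by 0.35 ± 0.11 (adjusted p 0.0108), the latter lost without CLA18:3 replicate 2 (-0.28, 0.0542). NPAT did not pass after CLA18:2, at -0.14 ± 0.11 (adjusted p 0.353). Of the same 23 genes, 4 fell after LA, where 3.41% of all genes fell, 3 after RSL3+LA (4.81%), 8 after RSL3+CLA18:2 (16.6%) and 7 after CLA18:3 (16.7%). In the last 2 treatments 2 and 1 rose, where 18.6% and 19.1% of all genes did, and 0 passed after RSL3.

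**Figure D4:**
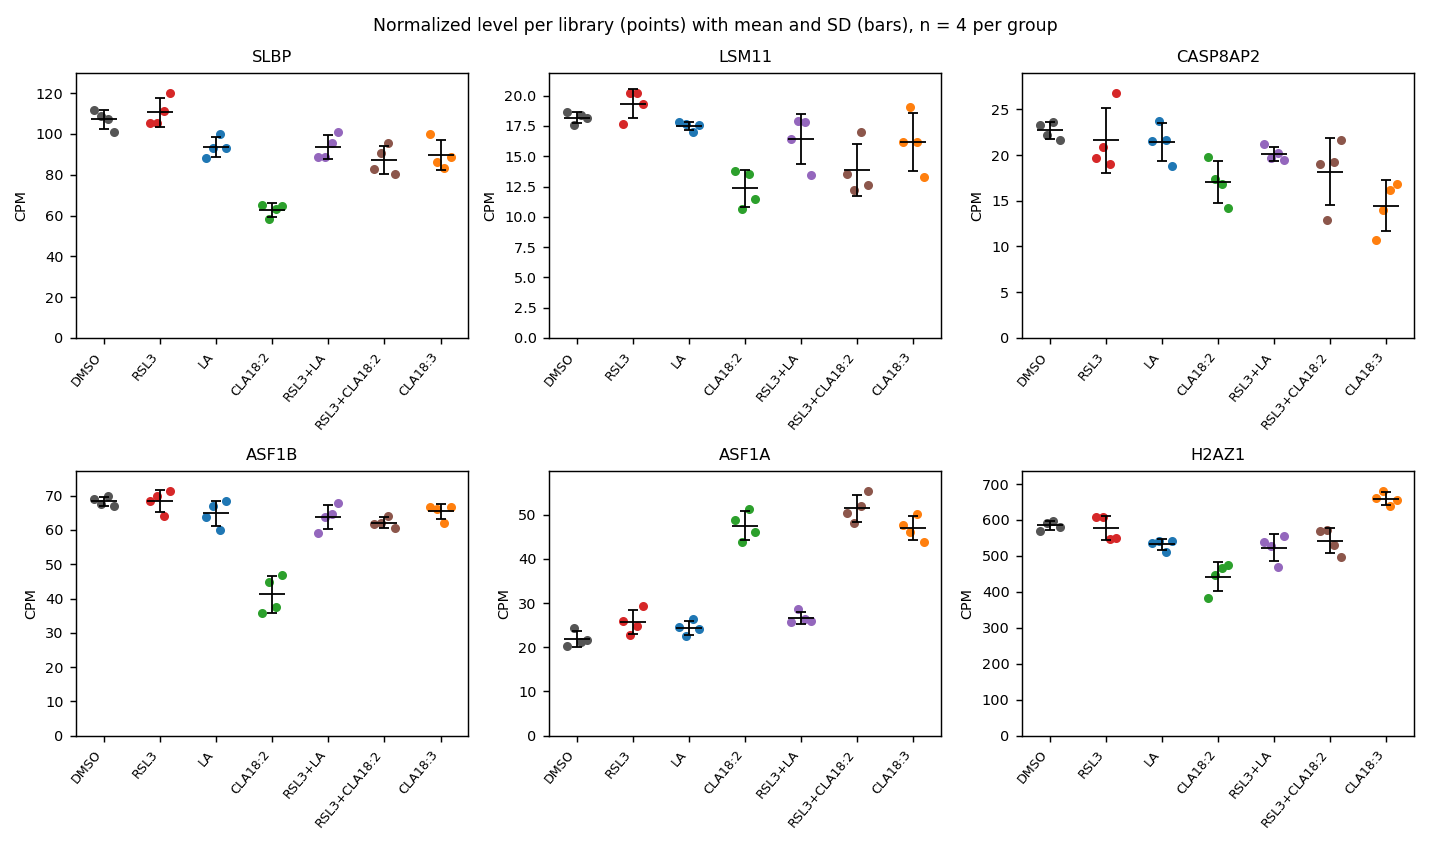
CPM per library (points, y axis from 0) of 6 genes that act on or replace replication-dependent histones, by group (x axis), with the mean and SD of 4 libraries (black). SLBP lies between 58.05 and 65.38 in CLA18:2 against 100.9 to 111.6 in DMSO, and H2AZ1 is highest in CLA18:3.

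Of the 19 tested genes of histone mRNA translation and decay, 4 rose and 3 fell after CLA18:2, a share near the 38.8% of all genes that passed there. After RSL3+CLA18:2 6 rose and 1 fell (35.2% of all genes passed), and after CLA18:3 5 rose and 5 fell (35.9%). TUT7, a uridylyltransferase that marks histone mRNA for decay, rose by 0.95 ± 0.12 after CLA18:2 (adjusted p 4.0e-08). ERI1, the exonuclease that trims the stem-loop end, fell by 0.39 ± 0.07 and UPF1, an RNA helicase of that decay, by 0.40 ± 0.05 (adjusted p 1.9e-05 and 4.3e-09). LSM3, of the LSM ring that binds the tail, rose after CLA18:3 by 0.40 ± 0.06 (adjusted p 8.4e-07).

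Of the 40 S-phase genes, 36 fell and 1 rose after CLA18:2, where 18.6% of all genes fell, with a median of -0.53, and their summed level was 3162 ± 78.68 CPM against 4560 ± 26.81 CPM in DMSO (SD, n = 4). CDC6, a loader of the replicative helicase, fell by 0.78 ± 0.04 and PCNA, the polymerase clamp, by 0.48 ± 0.04 (adjusted p 4.9e-17 and 3.6e-11). In the same libraries 2 of 23 replication-dependent histone genes fell and 2 rose. Of their 23 values 17 were negative and 6 positive, with a median of -0.29. With only genes of a mean count of 10 or more in the fit, that median was -0.12. The 8 measured and 6 further tested histone genes that passed nowhere against DMSO averaged 2.23 CPM or less. The counts of calls in the 2 lists were thus not reached at equal precision. After RSL3+CLA18:2, 23 of 40 fell and 4 rose, after CLA18:3 18 fell and 4 rose, after RSL3+LA 8 fell, after LA 7 fell and after RSL3 0 passed, where 16.6%, 16.7%, 4.81%, 3.41% and 0.0245% of all genes fell. Against CLA18:2 alone, RSL3+CLA18:2 raised 37 of 40 and lowered 0 (6.65% of all genes higher), while 0 of 23 histone genes rose and 3 fell. A test of the difference between the lists was not made.

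**Figure D5:**
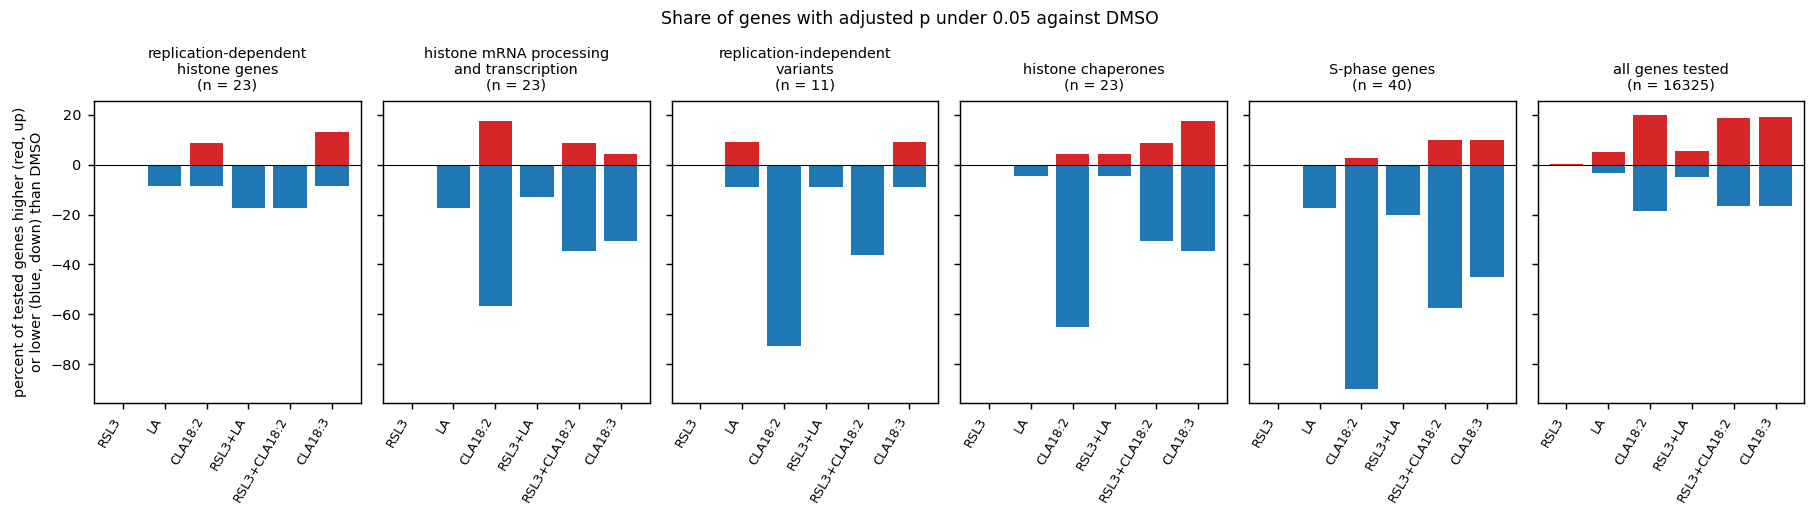
Percent of tested genes in each list, and of all genes, that were higher (red, upward) or lower (blue, downward) than DMSO at an adjusted p under 0.05, for the 6 treatments (x axis). In CLA18:2 most S-phase genes (36 of 40) lie below the line, while the replication-dependent histone genes have 2 on each side.

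Of 11 tested replication-independent histone genes, 8 fell and 0 rose after CLA18:2, where 18.6% of all genes fell, with a median of -0.28. H2AZ1, a variant of H2A, fell by 0.40 ± 0.06 after CLA18:2 and rose by 0.17 ± 0.06 after CLA18:3 (adjusted p 3.3e-07 and 0.0143), the latter not passing with library totals alone (0.10, 0.167). H2AX, the variant phosphorylated at DNA breaks, fell by 0.50 ± 0.06 after CLA18:2, H3-3A by 0.19 ± 0.05 and H3-3B by 0.28 ± 0.05 (adjusted p 2.0e-08, 0.00241 and 2.1e-05).

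Histone chaperones, which carry new histones to DNA, fell in 15 of 23 cases after CLA18:2 and rose in 1, beside 18.6% and 20.1% of all genes. ASF1B fell by 0.73 ± 0.07, CHAF1B, a subunit of the assembly factor CAF-1, by 0.57 ± 0.06, and NASP, which holds the soluble H3 and H4 pool, by 0.46 ± 0.04 (adjusted p 2.5e-11, 2.4e-09 and 1.1e-11). ASF1A was the gene that rose, by 1.12 ± 0.08 (adjusted p 3.3e-14), and it also rose after RSL3+CLA18:2 (1.24 ± 0.08) and CLA18:3 (1.10 ± 0.08, adjusted p 3.0e-15 and 8.8e-14). After RSL3+LA it read 0.29 ± 0.08 (adjusted p 0.0119), a call not held without DMSO replicate 1 or RSL3+LA replicate 2, at 0.25 each (0.0574 and 0.0564). The paralogs ASF1A and ASF1B thus moved in opposite directions after CLA18:2.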

How the data were processed

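The deposited files hold raw gene counts, which the authors made from total RNA of 28 libraries. HISAT, SAMtools, featureCounts and DESeq2 with the build hg38 are named per the submitters' processing notes. Versions, annotation, strand setting, RNA selection and treatment of multi-mapping reads are not given in the sources used here. The labels write the fatty acid doses in mM and the design text in µM, and µM is used here.

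Genes were kept with edgeR's default filter on the 7 groups (16325 of 60286 rows), scaled by TMM and fitted with 1 mean per group over all 28 libraries in edgeR 4.0.16 (R 4.3.3), with quasi-likelihood F tests and Benjamini-Hochberg adjustment over all genes at 0.05. SE is the size of the log2 fold change over the square root of F, and intervals are at 95%. The alternatives used limma 3.58.1 (voom) and DESeq2 1.42.0 without independent filtering. The 12 comparisons and 3 interactions follow the design. CPM per kb uses exon lengths of GENCODE release 29, in which 62 of 66 members matched once, and 61 members had a promoter in the RefSeq table (GRCh38.p14). Protein sequences are not used here. Figures used Python 3.11.15 and matplotlib 3.10.9.

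Every measured histone gene is named. Values per library are given for the 5 with the highest mean CPM and up to 10 more by how many comparisons with DMSO they passed. From the lists, 15 fixed genes and up to 3 more per list with the smallest p after CLA18:2, RSL3+CLA18:2 or CLA18:3 could be named, of which 1 is not reported here. The members, the 9 lists and this rule were chosen with earlier results of these data known. Replicate pairs differed by more than counting noise, with a chi-square per degree of freedom of 2.42 to 27.6 over 42 pairs.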

Additional observations from a re-analysis of the deposited data

Results flagged for a closer look

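In 8 of 70 groups of 4 libraries examined, 1 library stood apart from the other 3 by Dixon's criterion. Chance gives about 1 such group in 20. H1-2 was low in CLA18:2 replicate 1 at 46.1 CPM and high in CLA18:3 replicate 3 at 65 CPM. H2BC21 was low in LA replicate 2 at 9.38 CPM and high in CLA18:3 replicate 3 at 12 CPM. H2BC11 was low in CLA18:3 replicate 1 at 10.8 CPM. H4C8 was high in DMSO replicate 1 at 4.88 CPM and low in CLA18:2 replicate 1 at 6.25 CPM. The share of counts in measured histone genes was low in RSL3+LA replicate 1 at 0.0193%.

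The response to RSL3 differed by the presence of CLA18:2 for 8 genes outside the family, tested as an interaction in edgeR with all values higher in the mixture than the sum of the parts. The log2 values were 0.32 for NASP, 0.43 for SLBP, 0.31 for H2AZ1, 0.31 for H2AX, 0.39 for CDC6, 0.59 for ASF1B, 0.30 for PCNA and 0.36 for CHAF1B. Between the isomers, the response to RSL3 differed by 0.31 for NASP, 0.48 for SLBP, 0.32 for H2AZ1, 0.47 for CDC6, 0.61 for ASF1B, 0.33 for PCNA and 0.33 for CHAF1B. Not all of these calls held under other settings or without single libraries: for RSL3 with CLA18:2 those of H2AZ1, H2AX and CHAF1B did not, nor for the isomers those of H2AZ1 and CHAF1B. No replication-dependent histone gene passed these tests.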

How the results depend on the processing

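Counts of histone genes past the threshold were recomputed under other scalings, filters, tools and fits and without each library in turn, as was each of the 32 gene calls, each of the 9 main genes against DMSO and the named list genes that passed. Of the 32 calls, 20 held under every setting, 12 were lost without some library, 7 of these also under another setting, and none changed sign. Of 171 list gene values past the threshold, 144 held throughout and none changed sign. Without each library in turn the counts ran from 1 to 2 for LA against DMSO, 2 to 4 for RSL3+CLA18:2 against RSL3, 1 to 3 for RSL3+CLA18:2 against CLA18:2, 1 to 2 for CLA18:2 against LA and 1 to 4 for RSL3+CLA18:2 against RSL3+LA. Against DMSO they also ran from 4 to 5 for CLA18:2, 3 to 4 for RSL3+LA, 3 to 6 for RSL3+CLA18:2 and 4 to 6 for CLA18:3. Under the other settings the counts for these treatments ran from 4 to 5, 4 to 6, 3 to 5 and 5 to 7. With only the groups compared in the fit the count was 1 for RSL3+CLA18:2 against CLA18:2, 4 for CLA18:2 against LA and 0 for RSL3+CLA18:2 against RSL3+LA, and the last was 2 with upper-quartile factors, with library totals and with limma voom. The cause was not tested.

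The share of counts in DMSO was 0.02472% with RLE factors and 0.02468% with TMM factors, and that in CLA18:3 was 0.02779% with TMM factors, a setting chosen after seeing the data. Of 35 values against DMSO that did not pass, 10 changed sign under some setting. With upper-quartile factors these were H1-2 after CLA18:2 (-0.02), H1-2 after RSL3+LA (0.00) and H2BC5 after RSL3+CLA18:2 (-0.02), and with library totals H1-2 after RSL3+LA (0.01) and H2BC5 after RSL3+CLA18:2 (-0.02). H2BC5 after RSL3+CLA18:2 also read -0.05 with limma voom and -0.00 with the replicate block. Over the fits without single libraries, H2BC12 after RSL3 ran from -0.02 to 0.06, H2BC4 after LA from -0.18 to 0.07, H4C8 after LA from -0.12 to 0.08, H1-2 after CLA18:2 from -0.00 to 0.06, H2BC4 after CLA18:2 from -0.15 to 0.05, H1-2 after RSL3+LA from -0.05 to 0.03, H2BC5 after RSL3+LA from -0.12 to 0.05, H4C8 after RSL3+CLA18:2 from -0.02 to 0.42, H2BC5 after RSL3+CLA18:2 from -0.21 to 0.18 and H2BC5 after CLA18:3 from -0.02 to 0.13. Same-numbered replicates were checked as pairs: of 84 correlations of their residuals over all tested genes 1 exceeded 0.1, and over genes with a mean CPM of 10 or more, a limit chosen after seeing the data, 28 did. In none of 21 group pairs did all 4 exceed it, so the numbers were not taken as a pairing. With the replicate block the count for RSL3+CLA18:2 against RSL3 was 3 in place of 2, and none of the 32 calls was lost. Counts per library limit the precision of the genes under 10 counts, where 1 count is worth 0.0407 to 0.0613 CPM.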
